A study of Mus musculus with 29 samples.

Results

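The genes of lipid uptake, storage and lipolysis considered here were Fabp4, Fabp5, Lpl, Cd36, Plin2, G0s2, Pnpla2, Acsl1, Adipoq and Dgat2. They were chosen by name, with earlier results of these data known, and followed in cultured stromal vascular fraction (SVF) of mouse white adipose tissue. All 10 had a row in the count table, which holds 56953 features, and 7 of them passed the filter on low counts; Acsl1, Adipoq and Dgat2 did not. SVF is the mix of non-adipocyte cells that remains when fat is digested with collagenase and the floating adipocytes are removed. It was isolated from inguinal fat (iWAT, a subcutaneous depot) and perigonadal fat (pgWAT, a visceral depot) of C57BL6/J males and females. The crude cells of all groups were grown in PM1 medium with 1 nM basic FGF for 4 days in 96-well plates, and no induction of adipogenesis preceded RNA extraction. The mice were adults by the study's methods. Of the 29 Smart-seq3 libraries, 19 came from iWAT (10 labelled male, 9 labelled female) and 10 from pgWAT (4 labelled male, 6 labelled female). The group sizes in the study's methods differ from those in the labels, and the labels were used here. Culture wells are technical replicates according to the study, drawn from few independent experiments, and from fewer for pgWAT than for iWAT. No label says which wells came from the same experiment. P-values and false discovery rates (FDR) therefore measure the spread between wells.

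Total counts ranged from 315316 to 1102234 per library, and between 12200 and 15394 genes were detected. Levels are given in CPM, read counts divided by the library total after correction by TMM factors. At this depth 3 counts, the limit that a count of 0 allows, corresponded to between 2.58 and 9.77 CPM in a single library, for counting error only. Sex-linked transcripts matched the label in all 19 iWAT libraries and in 5 of 10 pgWAT libraries. The libraries labelled pgWAT male 2 and 4 carried 24 and 60 counts of Xist, the transcript of the inactive X, with 1 and 0 Y-linked counts. Those labelled pgWAT female 2 and 3 carried 23 and 26 Y-linked counts and 0 counts of Xist. The library labelled pgWAT female 1 carried both, with 7 Xist and 10 Y-linked counts. Results that rest on pgWAT are given with and without these 5 libraries, and the libraries were not regrouped. The plate wells named in the titles run to row P and are read here as wells of library preparation, not of culture. Libraries were spread unevenly over them. Those of pgWAT female stood only in well columns 8 and 10, and those of iWAT male only in columns 7 and 9. Acsl1 shared 9.89% of its 31-base words with other genes and Fabp5 9.27%, the highest shares among the members. The 5 pseudogenes and copies that shared most with Fabp5 held at most 3 counts each over all libraries, against 5731 counts of Fabp5 itself.

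Fat cells obtain most of their fatty acids from circulating lipoproteins. Lipoprotein lipase (Lpl) releases them from triglyceride, Cd36 carries them across the plasma membrane, the binding proteins Fabp4 and Fabp5 hold them in the cytosol, and acyl-CoA synthetases such as Acsl1 activate them. Dgat2 completes the triglyceride, which is stored in droplets coated by perilipins such as Plin2. Pnpla2 (adipose triglyceride lipase) begins its breakdown, and G0s2 binds and inhibits Pnpla2. Adiponectin (Adipoq) is secreted by mature adipocytes. Several of these genes are not restricted to fat cells, since macrophages are also known to express Lpl, Cd36, Fabp4, Fabp5 and Plin2.

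The members spanned a wide range of levels in every group, read here as CPM per kilobase of the longest coding transcript. The counts pool reads with and without molecular identifiers, and whether they grow with transcript length was not tested. The order of the genes depends on this scaling. In plain CPM the median of Lpl was above that of Fabp5 in every group, with 1545 against 580 CPM in pgWAT male. In iWAT, Plin2 had the highest median level, with 517 CPM per kilobase in males and 341 in females, followed by Fabp5 with 312 and 183. In pgWAT the leading genes were Fabp5 with 588 and Lpl with 376 in males, and Lpl with 412 and Fabp5 with 379 in females, while Plin2 followed them with 302 and 226. The ranges of Fabp5 and Lpl overlapped in both pgWAT groups. Pnpla2, which starts lipolysis, was among the lowest of the tested members, with medians between 7.21 and 20.8 CPM per kilobase. Acsl1, Dgat2 and Adipoq lay lower still, with medians of at most 7.29 CPM per kilobase.

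**Figure D1:**
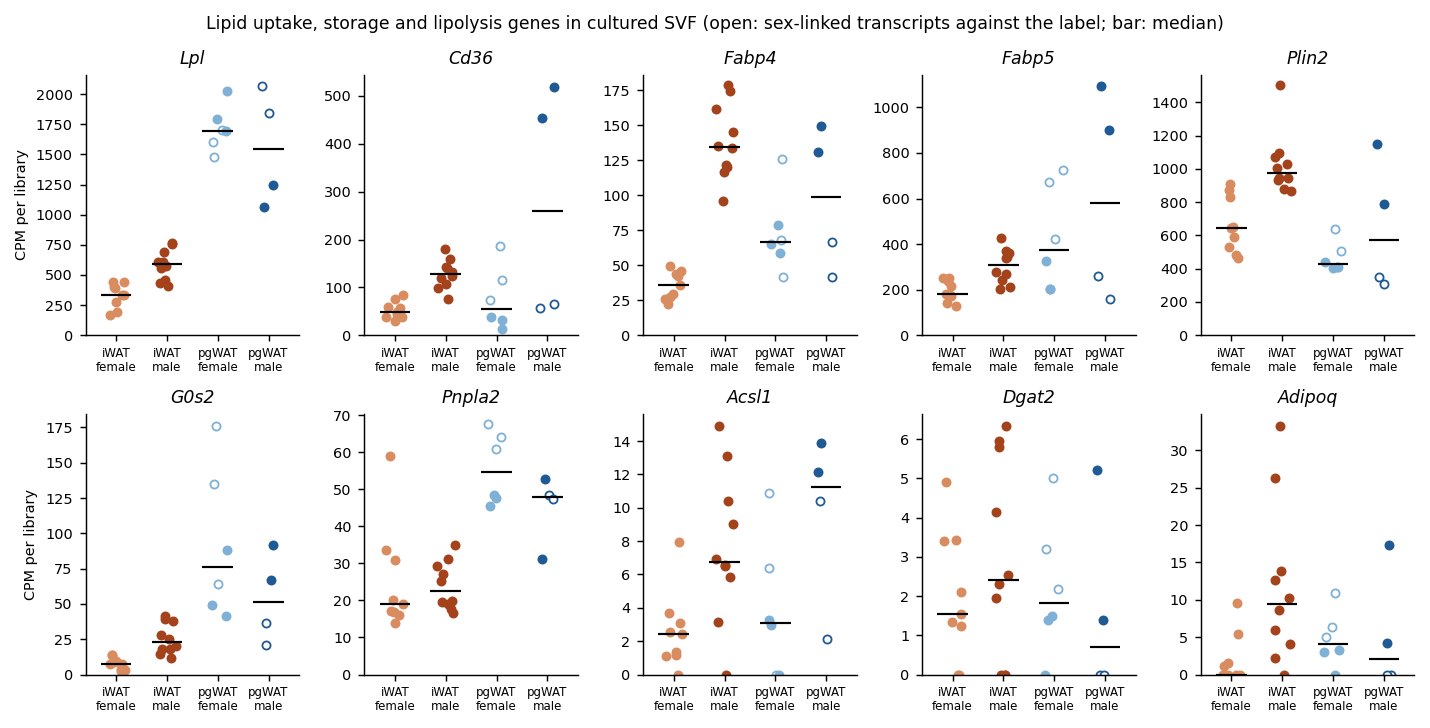
Level of each member in CPM (linear axis from 0) in every library, by depot and labelled sex. Each point is 1 library, the bar is the group median, and open points are the 5 pgWAT libraries whose sex-linked transcripts go against the label. Lpl is the member whose iWAT and pgWAT libraries do not overlap, and Cd36 and Fabp5 have their widest spread within pgWAT.

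The comparison of depots asked whether these genes keep a depot difference in culture. With both sexes weighted equally, 5 of the 7 tested members were higher and 1 lower in pgWAT than in iWAT (edgeR quasi-likelihood test, FDR below 0.05). The background was large: 20.2% of all 8853 genes tested were called higher and 17.9% lower. The median log2 fold change was 1.05 over the tested members and 0.01 over all genes tested. Because the members were chosen with earlier results of these data known, such comparisons with all genes are descriptive only. Without the 5 libraries that went against their labels, 6 members were higher, with 12.2% of all genes called higher and 11.5% lower, and none was lower.

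Among the uptake genes, Lpl showed the clearest depot difference. Its level ran from 166 to 762 CPM over the 19 iWAT libraries, with a median of 440.5, and from 1064 to 2068 CPM over the 10 pgWAT libraries, with a median of 1696. The lowest pgWAT library was thus above the highest iWAT library. Between depots it differed by 1.89 ± 0.13 on the log2 scale (SE, FDR = 1.09e-13), a 3.70-fold difference, and by 1.70 (FDR = 2.9e-10) without the 5 libraries. The difference was also called within columns of the plate, at 1.88 between libraries labelled male in well column 9, where both pgWAT libraries were among those that went against their labels, and at 2.28 in females of well column 8. The same pgWAT libraries are behind every value for labelled males of column 9 given below.

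Cd36, the fatty acid translocase, was called higher in pgWAT, but the call rested on a part of the libraries. The iWAT libraries ran from 29.5 to 181 CPM with a median of 83.3. The 4 pgWAT male libraries had 453, 57.2, 519 and 64.4 CPM, and the 6 pgWAT female libraries ran from 13.0 to 187 CPM with a median of 55.4. Only 4 of 10 pgWAT libraries lay above the iWAT mean of 92.2 CPM, and the 2 highest were pgWAT male 1 and 3. Its log2 fold change was 0.81 ± 0.29 (SE, FDR = 0.0275), and 0.54 (FDR = 0.0491) without the 5 libraries. Leaving out pgWAT male 3 gave 0.53 (FDR = 0.163), leaving out pgWAT male 1 gave 0.62 (FDR = 0.104), and leaving out pgWAT female 2 or 3 gave 0.73 and 0.55, none of them called. With limma-voom it was 0.27 (FDR = 0.539) and with the well column as a factor 0.46 (FDR = 0.261), and within the columns the difference had the opposite sign: −0.41 in females of column 8 and −0.84 (FDR = 0.0281) in labelled males of column 9, where the pgWAT libraries are those named for Lpl.

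Fabp5, the epidermal-type fatty acid binding protein that many cell types express, was 2.08-fold higher in pgWAT. Its level ran from 130 to 428 CPM in iWAT with a median of 243. In pgWAT male it was 1096, 161, 901 and 259 CPM, and in pgWAT female it ran from 201 to 724 CPM with a median of 374. The depots overlapped, and the mean of iWAT, 252 CPM, was exceeded in 7 of 10 pgWAT libraries. On the log2 scale the difference was 1.06 ± 0.22 (SE, FDR = 0.000234) and 1.00 (FDR = 8.17e-06) without the 5 libraries. With the well column as a factor the call was lost (0.55, FDR = 0.0678), and within columns it was 0.09 in females of column 8 and −0.44 in labelled males of column 9, neither of them called.

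For Fabp4, the binding protein of adipocytes and macrophages, no depot difference was called. The iWAT libraries ran from 22.2 to 178 CPM, a range set by the labelled sexes, which are described below. The pgWAT male libraries had 149, 41.6, 131 and 66.6 CPM, and the pgWAT female libraries 41.6 to 126 CPM with a median of 66.5. All pgWAT values thus lay within the range of the iWAT libraries. The fitted log2 fold change was 0.25 with a 95% interval from −0.09 to 0.59 (FDR = 0.246). Without the 5 libraries it was 0.45 and called (FDR = 0.0286). By sex, the depot difference of Fabp4 was 1.01 in females (FDR = 0.00151) and −0.51 in males (FDR = 0.133). The male value was −0.00081 (FDR = 0.999) without the 5 libraries and −1.17 (FDR = 0.00532) in column 9 alone. In males Fabp4 was also called lower with limma-voom (−0.65, FDR = 0.0404) and without pgWAT male 1 (−0.79, FDR = 0.0271).

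Plin2, the droplet coat protein found in most cells that store lipid, was the only member lower in pgWAT. It ran from 466 to 1508 CPM in iWAT with a median of 881. In pgWAT male it was 792, 350, 1150 and 308 CPM, and in pgWAT female it ran from 407 to 636 CPM with a median of 427. All pgWAT libraries except pgWAT male 3 lay below the iWAT mean of 856 CPM, and the depots overlapped. The fitted log2 fold change was −0.58 ± 0.16 (SE, FDR = 0.00363). The call was lost without the 5 libraries (−0.39, FDR = 0.0511) and with the well column as a factor (−0.43, FDR = 0.052). In labelled males of column 9 the difference was −1.52 (FDR = 8.07e-06). Without the 5 libraries it was −0.11 (FDR = 0.827) in males and −0.67 (FDR = 0.0145) in females.

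The regulators of lipolysis, Pnpla2 and its inhibitor G0s2, were both higher in pgWAT. G0s2 ran from 2.69 to 41.5 CPM in iWAT with a median of 13.9, and in pgWAT female from 41.5 to 176 CPM with a median of 76.0. In pgWAT male it was 92.0, 20.8, 66.7 and 36.5 CPM. All 10 pgWAT libraries lay above the iWAT mean of 17.2 CPM, and the pgWAT male libraries overlapped the iWAT male libraries. G0s2 had the largest log2 fold change of the tested members, at 2.26 ± 0.25 (SE, FDR = 1.05e-08), and 2.18 (FDR = 3.62e-08) without the 5 libraries. Within columns it was 2.66 in females of column 8 and −0.27 (FDR = 0.612) in labelled males of column 9. These are small numbers of reads, with 208 counts over the 19 iWAT libraries and 392 over the 10 pgWAT libraries.

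Pnpla2 ran from 13.9 to 59.1 CPM in iWAT with a median of 19.9. In pgWAT female it ran from 45.6 to 67.6 CPM, and in pgWAT male it was 31.3, 48.5, 52.8 and 47.2 CPM. Only iWAT female 9 at 59.1 CPM, iWAT male 4 at 34.9 CPM and iWAT female 3 at 33.6 CPM reached the pgWAT range, and 10 of 10 pgWAT libraries exceeded 24.6 CPM, the iWAT mean. Its log2 fold change was 1.05 ± 0.17 (SE, FDR = 9.69e-06) and 0.89 (FDR = 0.00483) without the 5 libraries. It was called in both columns, at 1.49 in females of column 8 and 1.06 in labelled males of column 9.

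The promoter windows of the called members for which RefSeq gives one (GRCm38.p6, 250 bases before to 50 after the annotated start) are shown to set the genes of lipolysis, both higher in pgWAT, beside Cd36 and Plin2. The windows are chr1:193273139-193273438 (minus strand), chr7:141454938-141455237 (plus strand), chr5:17835847-17836146 (minus strand) and chr4:86670010-86670309 (minus strand), printed 5′ to 3′ in the direction of transcription. Capitals mark matches on either strand to the hexamer AGGTCA, which nuclear receptors bind, and to the CCAAT box.
G0s2: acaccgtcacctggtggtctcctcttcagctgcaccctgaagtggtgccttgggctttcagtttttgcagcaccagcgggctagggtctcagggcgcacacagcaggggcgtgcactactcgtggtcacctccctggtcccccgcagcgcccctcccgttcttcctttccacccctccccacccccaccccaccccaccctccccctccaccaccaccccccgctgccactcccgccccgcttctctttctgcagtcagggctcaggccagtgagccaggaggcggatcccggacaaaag
Pnpla2: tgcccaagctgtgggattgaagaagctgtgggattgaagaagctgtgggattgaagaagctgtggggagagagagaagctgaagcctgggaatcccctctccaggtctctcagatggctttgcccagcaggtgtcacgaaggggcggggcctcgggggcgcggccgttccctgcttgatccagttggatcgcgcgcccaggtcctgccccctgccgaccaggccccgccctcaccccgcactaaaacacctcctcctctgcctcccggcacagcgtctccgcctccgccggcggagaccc
Cd36: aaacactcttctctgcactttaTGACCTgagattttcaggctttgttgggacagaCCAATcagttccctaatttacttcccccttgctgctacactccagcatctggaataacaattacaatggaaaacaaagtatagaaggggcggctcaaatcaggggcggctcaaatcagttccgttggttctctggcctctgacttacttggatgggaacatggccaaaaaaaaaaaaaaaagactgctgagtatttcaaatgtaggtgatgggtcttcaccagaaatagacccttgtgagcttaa
Plin2: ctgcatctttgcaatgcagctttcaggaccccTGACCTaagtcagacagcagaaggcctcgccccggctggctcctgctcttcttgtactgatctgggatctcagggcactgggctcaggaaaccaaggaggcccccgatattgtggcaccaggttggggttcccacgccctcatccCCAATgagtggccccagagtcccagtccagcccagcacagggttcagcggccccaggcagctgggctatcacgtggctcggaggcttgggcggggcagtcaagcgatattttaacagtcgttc
The G0s2 and Pnpla2 windows held neither motif, and the Cd36 and Plin2 windows held 1 match to each. Of all 32851 windows of this length, 16.3% held the hexamer and 37.4% the CCAAT box. The element that Pparg binds with its partner Rxra, here 2 copies of AGGTCA on 1 strand with 1 base between them, was found in 0.0396% of all windows and in none of these 4. At so low a share, this absence cannot tell whether these genes have such an element in another form or elsewhere. The TATA box TATAAA (13.6% of windows) was not found in the 4 windows either. G0s2 and Pnpla2 windows were GC-rich, at 66.7% and 65.3% against a median of 52.7% over all windows, while Cd36 had 43.0% and Plin2 60.7%. These matches describe letters in a window and no binding was measured.

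The 3 members that did not pass the filter were too low for a depot comparison at this depth. Adipoq held 83 counts over the 19 iWAT libraries and 25 over the 10 pgWAT libraries, and was at 0 in 6 and 3 of them. Acsl1 held 69 and 35 counts, and Dgat2 31 and 10 counts. In the fit without a filter, none of these members was called between depots.

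**Figure D2:**
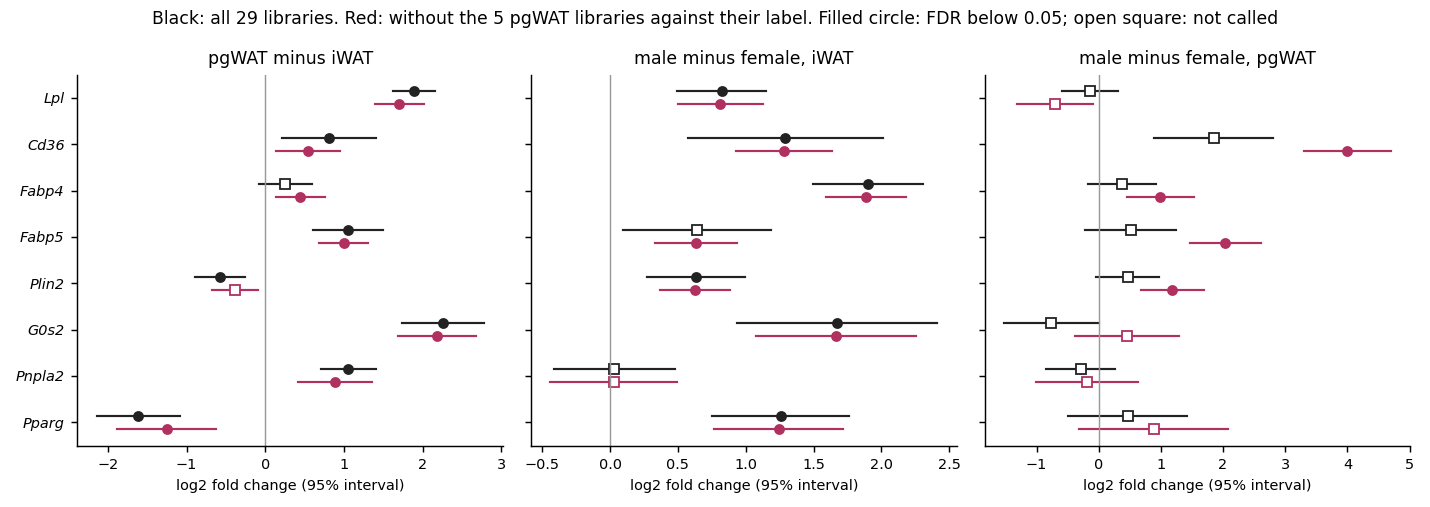
Log2 fold change of the tested members and of Pparg between depots and between labelled sexes, with 95% intervals, in the edgeR fit. Black is the fit on all 29 libraries and red the fit without the 5 pgWAT libraries that go against their labels; filled circles passed an FDR of 0.05 and open squares did not. In the iWAT sex contrast the fold changes are nearly the same in both fits, and Fabp5 is called only in the red fit. The pgWAT sex contrast of Cd36 moves from 1.85 to 4.00.

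Within each labelled sex, in the fit on all libraries, the depot contrast kept Lpl, G0s2, Pnpla2 and Fabp5 among the genes higher in pgWAT. In labelled males 5 members were higher, including Cd36 (1.09, FDR = 0.0487), and Plin2 was lower (−0.66, FDR = 0.0424), where 20.3% of all genes were called in either direction. In labelled females 5 members were higher, including Fabp4, and none was lower, where 26.8% of all genes were called; 1 member, Plin2, had an unadjusted p under 0.05 in the lower direction, and DESeq2 and limma-voom called none lower. The male call of Cd36 was lost with RLE factors (FDR = 0.0504), library totals alone (FDR = 0.0608), DESeq2 (FDR = 0.101) and limma-voom (log2 fold change 0.43), and limma-voom also ended the male calls of Fabp5 (0.61, FDR = 0.215) and G0s2 (0.90, FDR = 0.0763), the latter lost with the well column as a factor too (0.88, FDR = 0.0859). Leaving out 1 library ended the male calls of Cd36 in 21 of 29 fits, of G0s2 in 7, of Plin2 in 4 and of Fabp5 in 2 (pgWAT male 1 and 3). Without the 5 libraries Lpl, G0s2, Cd36 (1.89) and Fabp5 (1.70) were higher in males (9.16% of all genes called), and Lpl, G0s2, Pnpla2 and Fabp4 were higher and Plin2 lower (−0.67) in females (18.3% of all genes called), where Cd36 had a log2 fold change of −0.82 (FDR = 0.06). The female call of Fabp5 was lost there, falling from 1.12 to 0.29 (FDR = 0.373), as it was with the well column as a factor (0.33, FDR = 0.541), and so was the male call of Pnpla2 (0.78, FDR = 0.179). In the fit on all libraries the fold of G0s2 was 2.06 in males and 11.1 in females, and that of Lpl 2.65 and 5.16.

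The comparison of sexes in iWAT is free of the label mismatches, and most of the members were higher in males. Of the 7 tested members 5 were called higher and none lower, while 1.08% of all genes were called higher and 2.13% lower. No member had an unadjusted p under 0.05 in the lower direction, and DESeq2 and limma-voom called none lower. The median log2 fold change was 0.82 over the tested members and 0.01 over all genes tested. All 10 iWAT male libraries lay above the female mean for each of the 5 called members.

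Fabp4 was 3.73-fold higher in males. The iWAT female libraries ran from 22.2 to 49.8 CPM with a median of 35.9, and the iWAT male libraries from 95.5 to 178 CPM with a median of 135, with no overlap. This was a log2 fold change of 1.90 ± 0.20 (SE, FDR = 1.31e-07), and it was 1.94 (FDR = 4.84e-06) within well column 7, which holds 7 male and 4 female libraries.

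The other uptake genes moved the same way with smaller differences. Cd36 ran from 29.5 to 83.3 CPM in females (median 47.6) and from 75.7 to 181 CPM in males (median 128), so that the ranges met only at their ends. Its log2 fold change was 1.29 ± 0.35 (SE, FDR = 0.0346). Without the 5 pgWAT libraries it was 1.28 (FDR = 1e-05), on the same iWAT libraries. The call of Cd36 was lost in 8 of 29 fits that left out 1 library (iWAT male 1, 5 and 10, iWAT female 4, 6, 7, 8 and 9), with log2 fold changes from 1.22 to 1.28, and within well column 7 it was 1.06 (FDR = 0.00288). Lpl ran from 166 to 441 CPM in females (median 337) and from 406 to 762 CPM in males (median 593), and its log2 fold change was 0.82 ± 0.16 (SE, FDR = 0.00251), and 0.71 (FDR = 0.0301) within well column 7. Fabp5, at 130 to 253 CPM in females and 203 to 428 CPM in males, was not called, with a log2 fold change of 0.64 and a 95% interval from 0.10 to 1.18 (FDR = 0.214). It passed the threshold within well column 7 (0.96, FDR = 0.00218) and without the 5 pgWAT libraries (0.63, FDR = 0.00683).

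Of the storage and lipolysis genes, G0s2 ran from 2.69 to 13.9 CPM in females (median 7.74) and from 11.7 to 41.5 CPM in males (median 22.8). It differed by a log2 fold change of 1.67 ± 0.36 (SE, FDR = 0.00654), on 55 and 153 counts in all. Plin2 ran from 466 to 911 CPM in females (median 643) and from 865 to 1508 CPM in males (median 976), with a log2 fold change of 0.63 ± 0.18 (SE, FDR = 0.0408). The Plin2 call was the least stable: it was lost in 12 of 29 fits that left out 1 library (iWAT male 1, 2, 3, 5, 9 and 10, and iWAT female 3 to 8), among them iWAT male 1, the highest library (0.56, FDR = 0.0917), with the well column as a factor (0.53, FDR = 0.0769) and within well column 7 (0.50, FDR = 0.0694). Without the 5 pgWAT libraries, on the same iWAT libraries, Plin2 was called at 0.63 (FDR = 0.00215). The call of G0s2 was also lost within well column 7 (1.32, FDR = 0.0717). For Pnpla2 no difference was detected, at 24.0 ± 6.39 CPM in males (SD, n = 10) and 25.2 ± 14.4 CPM in females (SD, n = 9), with a log2 fold change of 0.03 and a 95% interval from −0.42 to 0.48.

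Adipoq, although below the filter, was listed in 9 of 10 iWAT male libraries, with a median of 9.41 and a highest value of 33.2 CPM. It was at 0 in 5 of 9 iWAT female libraries, with a highest value of 9.53 CPM. The totals were 69 and 14 counts, and in the fit without a filter it was called higher in males (2.41, FDR = 0.00384). The corresponding totals were 50 and 19 counts for Acsl1, which was not called in that fit (FDR = 0.126), and 18 and 13 counts for Dgat2.

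Some markers of macrophages were higher in males in this contrast, and some of epithelial cells, fibroblasts and smooth muscle were lower. The summed level of 7 macrophage markers (Cd68, Cd14, Cd163, Adgre1, Csf1r, Ptprc and Lyz2), all detected in both groups, was between 1416 and 2420 CPM in iWAT male and between 619 and 1095 CPM in iWAT female libraries, with no overlap. Lyz2 made up most of this sum, with means of 1670 CPM in iWAT male and 704 CPM in iWAT female libraries. It was the only marker of the 7 whose ranges did not overlap, and Cd68 came next with means of 145.5 and 74.8 CPM. Of the 5 markers that passed the filter 2, Lyz2 and Csf1r, were called higher in males. Mature adipocyte markers (9 genes, among them Adipoq itself, Plin1, Plin4 and Lipe) summed to between 27.9 and 172 CPM in iWAT male and to between 9.84 and 48.4 CPM in iWAT female libraries, and endothelial markers to between 34.6 and 105 CPM and between 28.6 and 63.5 CPM. Epithelial markers (Epcam, Krt8, Krt18 and Fgfr4, the last at 0 in all iWAT libraries) summed to at most 6.23 CPM in iWAT male and to between 29.4 and 1351 CPM in iWAT female libraries, with no overlap, and both tested ones, Krt8 and Krt18, were called lower in males. The highest sum was that of iWAT female 9, and the next was 254 CPM. Of 6 fibroblast markers 2 were called lower in males (Col1a1 at −1.23 and Lum at −1.38), and of 3 tested smooth muscle markers also 2 (Acta2 at −1.01 and Tagln at −1.23). Smooth muscle markers summed to between 584 and 837 CPM in iWAT male and to between 836 and 3529 CPM in iWAT female libraries. Fibroblast markers summed to between 6382 and 10370 CPM and between 7797 and 12210 CPM. Since Fabp4, Cd36, Lpl and Plin2 are known from macrophages as well as from fat cells, these sums are given beside the contrast, and their part in it was not tested. In bulk libraries a change in the number of cells of a type and a change in RNA per cell cannot be told apart.

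**Figure D3:**
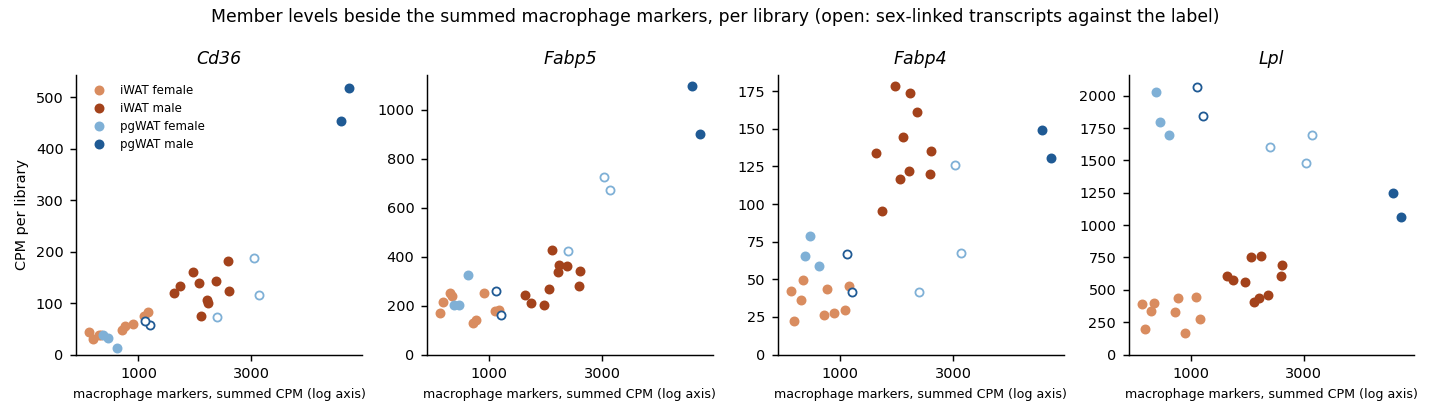
CPM of Cd36, Fabp5, Fabp4 and Lpl in each library (linear axes from 0) against the summed CPM of 7 macrophage markers (log axis), coloured by group, with open points for libraries that go against their labels. Lyz2 makes up most of the sum. The 2 pgWAT male libraries with sums of 7170 and 7759 CPM have the highest Cd36 and Fabp5 levels and the lowest Lpl levels of pgWAT.

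The macrophage sum also varied within pgWAT, and Cd36 and Fabp5 varied with it. Lyz2 again made up most of the sum, with a pgWAT mean of 2435 CPM against 231 CPM for Cd68, the next. The libraries with the higher sums, pgWAT male 1 and 3 and pgWAT female 1 to 3, were also those with 10 or more Y-linked counts, while the others carried Xist with at most 1 Y-linked count, and in the pgWAT female libraries the same split was that of well column 10 against column 8. Macrophage markers, sex-linked transcripts and, in these females, the well column cannot be told apart here. The sum was 7170, 1121, 7759 and 1065 CPM in pgWAT male 1 to 4, where Cd36 had 453, 57.2, 519 and 64.4 CPM. In pgWAT female it was 2159, 3244 and 3069 CPM in libraries 1 to 3 and 742, 708 and 811 CPM in libraries 4 to 6. Cd36 had 73.7, 115 and 187 CPM in libraries 1 to 3 and 31.8, 37.1 and 13.0 CPM in libraries 4 to 6. Fabp5 followed the same split, with 423, 671 and 724 CPM against 201, 203 and 326 CPM. Lpl went the other way in pgWAT male, with 1245 and 1064 CPM in libraries 1 and 3 against 1845 and 2068 CPM in libraries 2 and 4. In pgWAT female it had 1480 to 1699 CPM in libraries 1 to 3 and 1693 to 2028 CPM in libraries 4 to 6. In pgWAT male, Fabp4 had 149 and 131 CPM in libraries 1 and 3 against 41.6 and 66.6 CPM in libraries 2 and 4. Plin2 had 792 and 1150 against 350 and 308 CPM there, and G0s2 92.0 and 66.7 against 20.8 and 36.5 CPM. In pgWAT female, the values of these genes overlapped between libraries 1 to 3 and 4 to 6. Pnpla2 overlapped in pgWAT male and split in pgWAT female, with 60.9 to 67.6 against 45.6 to 48.5 CPM. Across the depots, 3 of 5 tested macrophage markers, 5 of 6 fibroblast markers and all 3 tested markers each of mesothelial and smooth muscle cells were called higher in pgWAT. Mesothelial markers summed to at most 8.40 CPM in iWAT and to between 55.6 and 183 CPM in pgWAT, and smooth muscle markers to between 584 and 3529 CPM in iWAT and between 1340 and 3133 CPM in pgWAT. Among the smooth muscle markers Mylk (myosin light chain kinase) had the largest difference (2.94, FDR = 1.89e-11), with no overlap. The part of these cell types in the depot differences was not tested.

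The sex comparison in pgWAT called no member (edgeR, 0 of 7 tested, with 0.0113% of all genes called). One member, Cd36, had an unadjusted p under 0.05, and DESeq2 and limma-voom called none. For Cd36 the log2 fold change was 1.85 ± 0.47 (SE, FDR = 0.212), and the male values fell apart as given above. Without the 5 libraries that went against their labels, 2 pgWAT male and 3 pgWAT female libraries remained, and 4 members were called higher in males, where 3.17% of all genes were. Cd36 was higher by 4.00 ± 0.34 (SE, FDR = 9.25e-10), Fabp5 by 2.04 (FDR = 5.03e-06), Plin2 by 1.18 (FDR = 0.00216) and Fabp4 by 0.99 (FDR = 0.0184) on the log2 scale. These 2 male libraries were the 2 with the highest macrophage sums, so that labelled sex and macrophage marker level cannot be told apart among them. Lpl, at −0.70, and G0s2, at 0.45, were not called.

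The difference between the sex contrasts of both depots (depot by sex interaction) was called for 2 members in the fit on all libraries, while 0.181% of all genes were called. It was −1.52 ± 0.34 for Fabp4 (SE, FDR = 0.0463) and −2.43 ± 0.53 for G0s2 (SE, FDR = 0.0348), both with a larger male excess in iWAT. Both calls were lost without the 5 libraries (−0.89 and −1.21), with the well column as a factor, with limma-voom and in 18 and 13 of the 29 fits that left out 1 library. Without the 5 libraries 3 other members were called, with 2.56% of all genes called: Cd36 at 2.72 (FDR = 2.55e-05), Fabp5 at 1.40 (FDR = 0.00704) and Lpl at −1.51 (FDR = 0.00797). No interaction of a member was thus called in both fits.

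The other genes of the pathway were read from lists by role, which hold 62 genes of the table beside the members, 38 of them tested. Between depots 10 were higher and 6 lower in pgWAT, beside 20.2% and 17.9% of all genes tested, and their median log2 fold change was 0.13. Of the uptake list (14 tested, members included) 9 were higher and 3 lower, of triglyceride synthesis (11 tested) 1 was higher and 2 lower, of the lipid droplet list (7 tested) 1 was higher and 2 lower, of lipolysis (6 tested) 3 were higher and none lower, and of fatty acid activation (5 tested) 1 was higher. Neither of the 2 tested adipokines was called.

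Of the other pathway genes that were well expressed, Gpam, the mitochondrial acyltransferase that starts glycerolipid synthesis, had the largest difference towards pgWAT. Its mean was 63.4 CPM in pgWAT and 22.2 CPM in iWAT, with a log2 fold change of 1.49 ± 0.24 (SE, FDR = 5.83e-06). Bscl2 (seipin, which acts in droplet formation) and Lrp1, a receptor for lipoprotein remnants, were higher by 0.44 and 0.40. Cav1, the coat protein of caveolae, was lower, with a log2 fold change of −1.75 ± 0.19 (SE, FDR = 5.28e-09), with 45.6 to 234 CPM in pgWAT and 294 to 593 CPM in iWAT and no overlap. Angptl4, a secreted inhibitor of Lpl, was lower (−0.95, FDR = 0.000104), with means of 183 CPM in pgWAT and 362 CPM in iWAT, and the acyltransferase Agpat4 was lower (−0.87, FDR = 9.14e-06). Chosen after their values were seen, Gpihbp1, the endothelial anchor of Lpl (0.92, FDR = 0.00468), and the lipoprotein receptor Vldlr (1.36, FDR = 3.01e-05) were higher in pgWAT, and the perilipin Plin4 was lower (−2.55, FDR = 4.8e-05). Abhd5, the activator of Pnpla2, was measured at 75.4 CPM in pgWAT and 70.8 CPM in iWAT and was not called (0.06, FDR = 0.753).

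**Figure D4:**
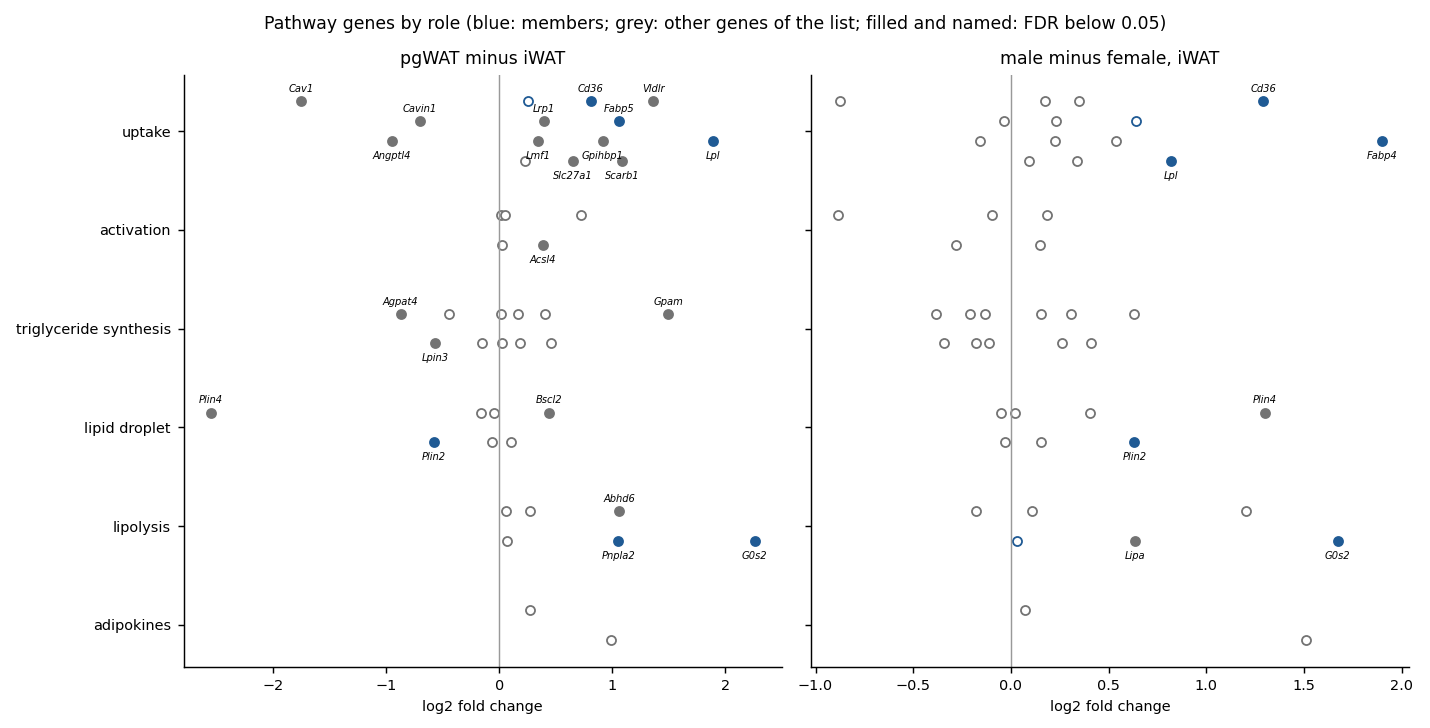
Log2 fold change of each tested pathway gene by role, between depots and between the labelled sexes of iWAT. Blue points are members and grey points the other genes of the list; filled and named points passed an FDR of 0.05. The uptake list has 9 genes on the pgWAT side and 3 on the iWAT side, and few genes other than the members are called between the sexes.

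Between the sexes of iWAT, 2 of the 38 other pathway genes were called, both higher in males, beside 1.08% of all genes. Lipa, the lysosomal acid lipase, was higher in males by 0.64 ± 0.18 (SE, FDR = 0.0457), with 76.1 to 155 CPM in males and 44.1 to 106 CPM in females. Plin4, chosen after its values were seen, was higher by 1.30 (FDR = 0.0481).

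Pparg, the nuclear receptor that drives adipogenesis and acts on many of these genes, went with the members in one comparison and against most of them in the other. In iWAT it was higher in males, with 28.5 to 88.0 CPM (median 59.0) against 7.94 to 35.7 CPM (median 23.1) in females and a log2 fold change of 1.26 ± 0.25 (SE, FDR = 0.00267). Between depots it was lower in pgWAT, with 4.35 to 29.2 CPM (median 9.69) against 7.94 to 88.0 CPM in iWAT and a log2 fold change of −1.61 ± 0.26 (SE, FDR = 7.42e-06), and −1.26 (FDR = 0.00322) without the 5 libraries. The depot contrast thus paired lower Pparg and Plin2 with higher Lpl, G0s2, Fabp5, Pnpla2 and Cd36, the last by a call that rested on a part of the libraries. The iWAT sex contrast paired higher Pparg with higher Fabp4, G0s2, Cd36, Lpl and Plin2.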

How the data were processed

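RNA of cultured SVF was measured in 29 Smart-seq3 libraries of 4 groups. After adapter trimming (NGmerge), the authors ran Salmon (version 1.9.0) on Gencode transcripts of GRCm39 and dropped libraries in which too few genes were seen. They deposited expected counts per gene, from reads with and without molecular identifiers and not normalized. Reads without identifiers are not independent molecules, so limits on zero counts cover counting error only. Use of strand in counting is not given in the sources used here. G0s2 is the one member that overlaps a gene with counts (antisense Lamb3, 50 counts against 600).

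Counts were rounded to whole numbers. Symbols (91.4% of features matched), lengths, shared 31-base words and RefSeq promoters came from a GRCm38 reference, and no coordinates were carried between builds. No pair of libraries of a group agreed within sampling noise.

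Contrasts were fitted with edgeR 4.0.16 in R 4.3.3 as a means model over the 4 groups, with TMM factors, filterByExpr (8853 genes kept) and the two-sided quasi-likelihood test. A call needed an FDR (Benjamini-Hochberg, over all genes tested) below 0.05. Alternatives were DESeq2 1.42.0 (the tool the study names), limma-voom (limma 3.58.1), other scalings, no filter, the plate's well column, each library left out, and removal of 5 pgWAT libraries. A library matched a female label with more than 3 Xist and at most 3 Y-linked counts, and a male label with the reverse. A library counts towards a difference when it lies beyond the mean of the other group. The code was tested on simulated data.

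All members and Pparg were named, and of the other pathway genes the 3 with the largest called change in each direction (average log2 CPM of 5 or more) in the depot and iWAT sex contrasts. Members and lists were chosen with earlier results of these data known. One gene of the uptake list and one macrophage marker are not reported here and were left out of the list counts and sums. Libraries were numbered in order of deposition.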

Additional observations from a re-analysis of the deposited data

Results flagged for a closer look

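Within groups, the level of 1 library stood apart from the others for 3 members, by Dixon's test at the 95% level. Plin2 had 1508 CPM in iWAT male 1, against 1096 CPM in the nearest library. Pnpla2 had 59.1 CPM in iWAT female 9, against 33.6 CPM in the nearest. Acsl1 had 7.94 CPM in iWAT female 6, against 3.72 CPM in the nearest, on 7 counts. In all, 38 sets of values were checked, and chance alone marks about 5% of them.

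The sex contrast differed between the depots for Fabp4 (interaction −1.52 on the log2 scale, FDR = 0.0463) and for G0s2 (−2.43, FDR = 0.0348). The depot contrast of Fabp4 was −0.51 in labelled males and 1.01 in labelled females, and that of G0s2 1.04 and 3.47. Of the pgWAT libraries behind these values, 2 of 4 male and 3 of 6 female libraries carry sex-linked transcripts that go against their labels, and without them neither interaction was called. In that fit the depot contrast of Fabp4 was −0.00081 in labelled males and 0.89 in labelled females.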

How the results depend on the processing

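Under other scalings (RLE, library totals alone), DESeq2 and no filter, the calls of the depot contrast and of the iWAT sex contrast among the tested members kept their direction and their side of the threshold, except that Fabp5 was called in iWAT without a filter (0.63, FDR = 0.0263). With the well column as a factor, 3 members were called higher and 0 lower between depots, 0 lower within males, 1 higher in the pgWAT sex contrast (Cd36) and 0 lower in the interaction. With limma-voom, Cd36 was not called between depots (0.27, FDR = 0.539), 2 members were called higher and 2 lower between depots within males, and 0 in the interaction. In well column 9 alone the male depot contrast had 2 higher and 3 lower. Within females 1 member (Plin2) was called lower with library totals alone, without a filter and without the libraries against their labels. Without a filter 1 member (Cd36) was called higher in the pgWAT sex contrast. Without the 5 libraries against their labels, 0 members were lower between depots or within males, 4 were higher in the pgWAT sex contrast, and 2 were higher and 1 lower in the interaction. The cause of these changes was not tested.

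Signs reversed for the depot contrast within males in column 9 alone (Fabp5 −0.44, Cd36 −0.84, G0s2 −0.27), where both pgWAT libraries go against their labels. They also reversed for Cd36 within females (−0.15 with the column as a factor, −0.41 in column 8 alone, −0.82 without the 5 libraries), for Pnpla2 in the iWAT sex contrast (−0.16 with the column as a factor), for G0s2 in the pgWAT sex contrast (0.064 with the column as a factor, 0.45 without the 5 libraries) and for the interaction of Fabp5 (0.45 and 1.40 under the same settings) and of Plin2 (0.56 without the 5 libraries).

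With each library left out in turn, the number of members called higher between depots ran from 4 to 5, within males from 2 to 5, in the iWAT sex contrast from 3 to 6 (the sixth was Adipoq, which passed the filter without pgWAT male 2, 3 or 4) and in the pgWAT sex contrast from 0 to 1. The number called lower ran from 0 to 2 within males, from 0 to 1 within females and from 0 to 2 in the interaction. Values that changed sign ran from −0.056 to 0.23 for Pnpla2 in the iWAT sex contrast, from −0.32 to 0.00041 for Lpl and from −0.21 to 0.69 for Pparg in the pgWAT sex contrast, and from −0.58 to 0.19 for Fabp5 and −0.60 to 0.054 for Plin2 in the interaction. No paired analysis was possible because the labels carry no replicate number shared between groups and the numbers used here only follow the order of deposition. Depth limits Acsl1, Adipoq and Dgat2, which had at most 17 counts in any library, and wells rather than animals are the unit of every test.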

Other observations

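Several genes that mark mature adipocytes and their hormone-driven lipolysis were low in these cultures. Of the mature adipocyte markers, Plin4 and Cfd passed the filter, with means of 26.2 and 9.74 CPM in iWAT and 4.59 and 17.6 CPM in pgWAT. Adrb3, the adrenergic receptor of adipocytes, had 0 counts in all libraries, which allows up to 0.238 CPM over the iWAT libraries and 0.528 CPM over the pgWAT libraries. Lipe, the hormone-sensitive lipase, had a mean of 7.14 CPM in iWAT and 6.93 CPM in pgWAT, on 89 and 37 counts. Plin1, the perilipin of mature adipocytes, had 25 counts in iWAT male, 1 in iWAT female, 9 in pgWAT male and 2 in pgWAT female libraries. Mgll, which releases the last fatty acid in lipolysis, ran from 4.32 to 36.1 CPM in iWAT male (median 13.0) and from 3.57 to 14.7 CPM in iWAT female libraries (median 4.54). It was not called between them (FDR = 0.0642, edgeR).

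Of the adipogenic regulators (11 genes, 6 tested), 2 were called higher in iWAT males: Pparg, and Nr1h3, the oxysterol receptor of fat cells and macrophages, with 12.7 to 59.3 CPM in males and 4.92 to 21.6 CPM in females (FDR = 0.00918, edgeR). Nr1h3 was named after its values were seen. Between depots Pparg was the only one of the 6 called, and it was lower in pgWAT.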
